A study of Rattus norvegicus with 4 samples.

Results

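The proteins of the cytosolic and the mitochondrial ribosome were followed through their transcripts in NR8383 cells, a macrophage line that came from the lavaged lung of a normal rat. Members were the array probes whose accession maps by RefSeq to a rat gene symbol of the form Rpl or Rps with a digit, Rplp, Rpsa, Mrpl or Mrps, without Rps4y2 and the Rps6k kinases. The rule used names and no measured value. It gave 291 of the 45598 gene probes, standing for 160 of the 16581 genes that could be named. Of these, 92 genes with 206 probes belong to the cytosolic ribosome (57 large subunit, 35 small subunit) and 68 genes with 85 probes to the mitochondrial one (42 large, 26 small).

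The series holds 1 group: 4 biological replicates, per the series design text, of cells given water for 4 h as a control, after 20 passages and 48 h in flasks of 25 cm2. The labels add the tag ALI to every sample and do not spell it out. No other condition was analysed here, so the data allow no comparison between treatments, and the only test the design allows is of the spread between the 4 arrays. That p-value sets the spread of a gene between these samples against the spread fitted for genes of like signal, and speaks of these samples alone. The fit included the members, and the cytosolic ones are a large part of the bright genes. A spread that they share thus enters the fitted value too. RNA of 1 sample went on each one-colour array, and all 4 arrays lay on 1 slide. Each value is a log2 signal from which that of the 75th percentile of the array's gene spots was taken, so 0 is that percentile.

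A ribosome joins a small subunit, which reads the messenger RNA, to a large subunit, which links amino acids. The cytosolic ribosome makes nearly all proteins of a cell, and its protein subunits are made in equal numbers from strongly expressed genes. The mitochondrial ribosome is built from other proteins, all encoded in the nucleus, and makes only the few membrane proteins encoded in mitochondrial DNA. Many transcripts for cytosolic ribosomal proteins begin with a C and a run of pyrimidines, the terminal oligopyrimidine start, through which the kinase mTOR controls their translation in mammals.

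Start sites of members that differ in this feature are shown because it was annotated more often in cytosolic than in mitochondrial genes, and the rule did not use it. Each line gives the 10 bases before and the 20 bases from the annotated start on the transcript strand (RefSeq, GRCr8), and capitals mark a pyrimidine run that begins with C at the annotated start and holds at least 4 more pyrimidines.
Rpl10, chrX:157205840-157205869, plus strand: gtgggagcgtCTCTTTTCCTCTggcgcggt
Rplp1, chr8:71290853-71290882, minus strand: cgcatgtgatCCTTTCCTCagctgccgcca
Rplp0, chr12:46718371-46718400, minus strand: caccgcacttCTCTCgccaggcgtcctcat
Rps6, chr5:106420521-106420550, minus strand: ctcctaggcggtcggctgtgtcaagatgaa
Rpl5, chr14:1995206-1995235, minus strand: ctttcccacgtcgcttgcgtcctggaggtg
Mrpl12, chr10:106256736-106256765, plus strand: agacaaaggcatgccgcggagggctgcagg
Mrpl3, chr8:114548960-114548989, plus strand: ggaccacattgagaaacggaccggaagtgg
Mrps30, chr2:52195885-52195914, minus strand: gacctcaagttccgggtcgcggaggacaaa
Mrpl4, chr8:27815761-27815790, plus strand: cattggtttgCTTCCggagcccgctctccg

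The RefSeq promoter table held 127 members, 72 cytosolic and 55 mitochondrial. A pyrimidine start was annotated for 23 cytosolic genes (31.9%) and 2 mitochondrial genes (3.64%, Mrpl4 and Mrps5), against 3.11% of all 27457 genes in the table. The stalk genes Rplp0 and Rplp1 and the large subunit gene Rpl10 had it, as the lines above show, while Rps6 and Rpl5 had none at the annotated base. The exact base matters: a run of the same kind that began anywhere within 10 bases of the annotated start was found in 50 of 72 cytosolic genes (69.4%), 20 of 55 mitochondrial genes (36.4%) and 31.3% of all genes. That wider window was chosen after the values were seen. Of 10 other transcripts known for a terminal oligopyrimidine start, 0 had the run at the annotated base and 7 within 10 bases of it, so the annotated base misses known ones.

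Other letters were looked for on both strands over the 250 bases before and the 50 bases from the annotated start. The motif CCGGAAG, bound by ETS factors, was in 27.8% of the cytosolic, 34.5% of the mitochondrial and 9.63% of all promoters. The motif AAGATGG, the core bound by YY1, was in 12.5% of the cytosolic, 25.5% of the mitochondrial and 7.77% of all promoters. The pyrimidine run overlapped a CCGGAAG match, read on the other strand as CTTCCGG, in 2 cytosolic genes and in 1 mitochondrial gene, and no other overlap was found between the run and a motif or between CCGGAAG and AAGATGG. A match is a description of these letters and not of binding.

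Nearly all members were detected, and each one that was not is a copy or paralogue of a standard ribosomal protein gene. Detection asked for 1 or more probes of the gene to stand well above background on all 4 arrays. All 68 mitochondrial genes were detected, and of the 92 cytosolic genes 86 were detected, 1 partly and 5 not, while 51% of all named genes were detected. All 142 members with the symbol of a standard subunit were detected. Of the 18 symbols of copies and paralogues, 12 were detected, 1 partly and 5 not. Standard genes without a named probe were Rpl37 and Rps9 among the cytosolic, and Mrpl28, Mrpl33, Mrpl39, Mrpl43, Mrps10, Mrps28 and Mrps6 among the mitochondrial; they are not analysed here, except that RefSeq lists Rpl37 as a synonym of the member Rpl37l1. With detection set by the negative controls of the array, 84 cytosolic and 52 mitochondrial genes passed. The share of all named genes under that other rule is not given here, so these counts have no background beside them.

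The 5 genes not detected were Rpl3l, the muscle form of Rpl3 in mammals, the copies Rpl27l2 and Rpl39l5, and the transcribed pseudogenes Rps4x-ps1 and Rps7-ps20. Their probes lay at a mean of -5.91 for Rpl3l, -7.07 for Rpl27l2, -6.57 for Rpl39l5, -6.62 for Rps4x-ps1 and -7.88 for Rps7-ps20, none above background on any array. The copy Rps12l4 was above background on 2 arrays, at -4.97, -5.51, -5.78 and -5.07 on replicates 1 to 4. The dimmest detected member was also a copy, Rps19l3, with a mean of -3.80, named after its values were seen.

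**Figure D1:**
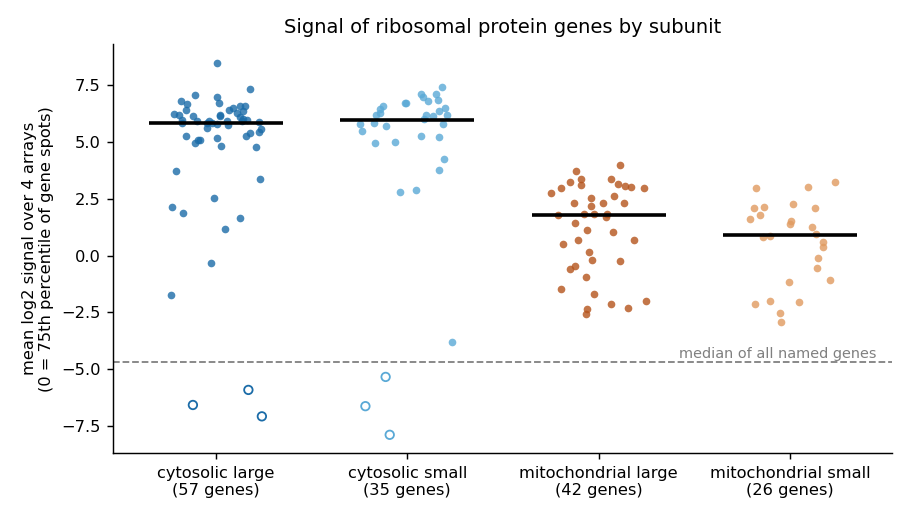
Mean log2 signal over 4 arrays of each of the 160 member genes (vertical axis, 0 = 75th percentile of gene spots) by subunit (horizontal axis); filled points were detected, open points were not or only partly, and black bars are the mean over arrays of the subunit median. The cytosolic medians lie at 5.84 and 5.97, the mitochondrial ones at 1.77 and 0.92, and the dashed line is the median of all named genes at -4.67.

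The cytosolic ribosomal protein genes gave some of the brightest signals of the array. The median over the 92 genes was 6.0, 5.93, 5.64 and 5.90 on replicates 1 to 4 (5.87 ± 0.15, SD of the array medians, n = 4), and that over the 68 mitochondrial genes was 1.32, 1.36, 1.52 and 1.49 (1.42 ± 0.10). The cytosolic median was above the mitochondrial one on every array, by 4.44 ± 0.24. Over all named genes the median was -4.67 ± 0.07. Probes differ in affinity and signals are not per length, so these medians describe the lists and do not give a ratio of molecules. Of the 86 detected cytosolic genes 76 lay in the brightest 10% of all detected named genes, as did 8 of the 68 mitochondrial genes (7 of the large subunit, 1 of the small).

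The stalk proteins Rplp0, Rplp1 and Rplp2 recruit translation factors to the large subunit. Rplp0 had 7.02, 6.70, 6.14 and 6.50 on replicates 1 to 4, a mean of 6.59 ± 0.37 (SD, n = 4). Rplp1 had 6.63, 6.57, 6.02 and 6.48, a mean of 6.43 ± 0.28. Rplp2 had 7.48, 7.41, 7.06 and 7.34, a mean of 7.32 ± 0.19. All 3 were highest on replicate 1 and lowest on replicate 3, and none differed between arrays by more than the variance test allows (adjusted p 0.659 for Rplp0, limma over 8455 genes).

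Among other large subunit genes, Rpl3, next to the catalytic centre, had 6.36, 6.33, 5.87 and 6.28 on replicates 1 to 4. Rpl10, which joins late and allows the subunits to meet, had 5.98, 5.85, 5.48 and 5.76, and Rpl23, a ribosomal protein that can bind the p53 regulator Mdm2, had 6.97, 6.94, 6.43 and 6.79. These 3 genes followed the order of the stalk genes, high on replicate 1 and low on replicate 3. Rpl5 and Rpl11, which travel together on the 5S rRNA and can also bind Mdm2, moved less: Rpl5 had 6.22, 6.11, 6.02 and 6.04, and Rpl11 had 6.01, 5.93, 5.82 and 6.03. Rpl4, which reaches into the exit tunnel, had 5.37, 5.19, 4.89 and 5.18.

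In the small subunit, Rps6, the target of the S6 kinases, had 5.28, 5.07, 4.51 and 5.02 on replicates 1 to 4, and its span of 0.77 was one of the widest of the subunit. Rps3, at the entry of the messenger RNA, had 6.21, 6.20, 5.94 and 6.17. Rps19, the gene most often mutated in Diamond-Blackfan anaemia in humans, had 7.31, 7.24, 6.85 and 7.07. Again replicate 3 was the low array for all 3 genes. Rpsa, also known as the laminin receptor precursor, had 6.40, 6.34, 5.90 and 6.16, and Rps14, of the platform of the subunit, had 5.52, 5.48, 5.17 and 4.96, lowest on replicate 4.

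Among the large subunit genes of the mitochondrial ribosome, Mrpl12, the stalk protein of that ribosome, had 3.72, 3.72, 3.69 and 3.82 on replicates 1 to 4 (3.73 ± 0.06, SD, n = 4). Mrpl40 had 2.23, 2.16, 2.20 and 2.23, and Mrpl41 had 2.58, 2.57, 2.56 and 2.73. Replicate 4 was the highest array of all 3, for Mrpl40 by a margin that vanishes on rounding, and the lowest array was not shared. Mrpl4 had 1.145, 1.19, 0.89 and 1.29, Mrpl44, a protein with a fold of RNase III, had 1.855, 1.86, 1.69 and 1.89, and Mrpl58, which frees stalled peptides, had 3.04, 3.01, 2.91 and 3.22. These 3 were lowest on replicate 3 and highest on replicate 4.

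Of the mitochondrial genes with small subunit symbols, Mrps12, the homologue of the bacterial decoding protein S12, had 2.11, 2.05, 2.04 and 2.25 on replicates 1 to 4. Mrps16 had 2.995, 2.90, 3.003 and 3.11, and Mrps22 had -2.01, -2.01, -1.86 and -2.11; both are mutated in human disorders of mitochondrial translation. The arrays differed little and in no shared order. Mrps34 stood at 1.32 on replicates 1, 2 and 4 and at 1.101 on replicate 3, and Mrps35 had 2.002, 1.51, 1.90 and 1.76. Mrps30, whose protein sits in the large subunit of mammalian mitochondrial ribosomes in spite of its symbol, had 0.90, 0.91, 0.91 and 0.72.

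The paralogue pairs were read side by side, each gene by its own probe. Rpl22l1 was detected at -0.33 ± 0.10, beside Rpl22 at 5.92 ± 0.05 (SD, n = 4). Rpl39l1, listed under the synonym Rpl39l, the gene of a testis form in mouse and human, was detected at 1.15 ± 0.03, beside Rpl39 at 5.41 ± 0.03. Rps27l, a target of p53 in human cells, was at 4.27 ± 0.04, beside Rps27 at 6.19 ± 0.07. Rpl36al1, listed under the synonym Rpl36al, was at 2.12 ± 0.07, beside Rpl36a at 4.77 ± 0.17, and Rpl3l, not detected, stands beside Rpl3 at 6.21 ± 0.23. The SD of each detected paralogue was at most 0.10, while Rpl3 and Rpl36a carried the wider spread of genes low on replicate 3. The probes of Rps27l and Rpl36al1 are printed at 10 spots and that of Rpl22l1 at 2. Those of Rpl39l1, Rpl3 and Rpl36a are printed at 1 spot. The SD also differed with the number of spots, as given below, and its part in this contrast was not tested.

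Rpl7, Rpl10 and Rpl26 were at 5.27 ± 0.19, 5.77 ± 0.21 and 6.13 ± 0.35, and their paralogues Rpl7l1, Rpl10l and Rpl26l1 were not analysed here for want of a named probe. Rps27a, the gene of a ubiquitin fused to a ribosomal protein, was at 6.38 ± 0.21. The paralogues of the mitochondrial S18 protein, of which Mrps18a sits in the large subunit, were at 1.62 ± 0.06 for Mrps18a, -1.16 ± 0.48 for Mrps18b and 0.83 ± 0.06 for Mrps18c. RefSeq lists 883 pseudogenes under cytosolic and 40 under mitochondrial ribosomal protein symbols, and binding of their transcripts to member probes was not tested.

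Several probes of 1 gene often stood at different signals. Of the 58 cytosolic genes with several probes 5 had probes that were not all detected, and of the 13 such mitochondrial genes 3 had. For Rpl36a, 3 probes lay between 4.47 and 4.77 and the other at -7.40, not above background, and Mrpl30 had 3 detected probes between -1.67 and 2.31 beside 2 at background. Rpl36a is a gene of the paralogue rule, and Mrpl30 was chosen after its values were seen. The value of a gene here is that of its brightest probe.

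By the median, and with the scaling used here, cytosolic members differed more from array to array than detected named genes as a whole, and mitochondrial members less. The SD over the 4 arrays had a median of 0.184 over the 86 detected cytosolic genes, 0.107 over the 68 mitochondrial genes and 0.144 over all detected named genes. The order depended on the scaling. In the same order the medians were 0.105, 0.108 and 0.139 with quantile normalization, and 0.179, 0.265 and 0.267 without scaling. Under both, the cytosolic median was below that of all genes. By subunit, with the scaling used here, the median SD was 0.186 for the cytosolic large, 0.180 for the cytosolic small, 0.101 for the mitochondrial large and 0.116 for the mitochondrial small subunit. In limma's variance test over 8455 genes, 20 genes (0.237%) passed at an adjusted p under 0.05 and 0 of them were members. At an unadjusted p under 0.05 in that test there were 14 of 86 cytosolic members, 2 of 68 mitochondrial members and 532 of all 8455 genes. Under alternative settings the cytosolic number ran from 1 without scaling (323 of all 8455 genes) to 30 without the filter on dim probes (1137 of all 16555). It was 2 without the trend (442 of all 8455) and 5 with quantile normalization (477 of all 8455). At the adjusted threshold, a fit without the trend, and another that was not robust, also called 0 members.

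**Figure D2:**
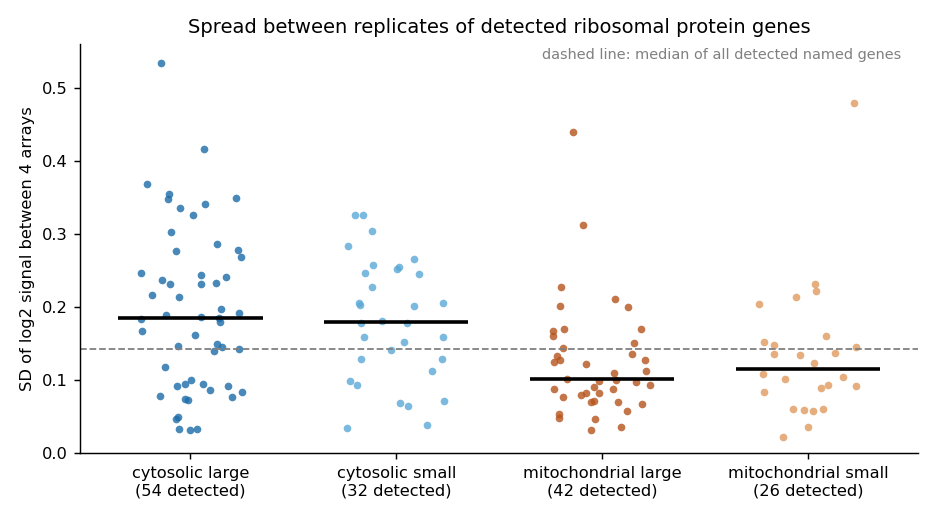
SD of the log2 signal between the 4 arrays (vertical axis) of each detected member, by subunit (horizontal axis); black bars are subunit medians and the dashed line is the median over all detected named genes, 0.144. Both cytosolic medians (0.186 and 0.180) lie above that line and both mitochondrial medians (0.101 and 0.116) below it, with single genes such as Rpl27al1 at 0.535 and Mrps18b at 0.479 far above.

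A span of more than 2-fold between the highest and the lowest array was seen in 1 cytosolic and 1 mitochondrial gene, against 3.26% of all detected named genes. The copy Rpl27al1, known only from a predicted transcript, had 3.21, 2.74, 2.03 and 2.20 on replicates 1 to 4, a span of 2.26-fold (adjusted p = 0.0893, limma). It passed the variance test without replicate 2 (adjusted p = 0.00775), with normexp background handling (0.0104) and without the filter on dim probes (0.00431), with a range over the alternatives of 0.00431 to 0.950. Mrps18b had -1.01, -0.84, -0.91 and -1.87, a span of 2.04-fold that rests on replicate 4 (adjusted p = 0.391, limma). It was not past the threshold under any alternative run, and its adjusted p ranged from 0.131 to 0.997.

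The members with the widest and narrowest spread were found in each subunit. In the cytosolic large subunit, Rpl35, at the exit tunnel, had 6.24, 5.88, 5.25 and 5.61 on replicates 1 to 4 and an SD of 0.417, and Rplp0 followed with 0.369. At the other end Rpl23a had 5.64, 5.62, 5.56 and 5.60 and Rpl39 had 5.41, 5.38, 5.38 and 5.45, both with SDs that round to 0.03, that of Rpl39 being 0.0799 with the mean of all probes. Both proteins line the same tunnel as Rpl35. In the small subunit, Rps23, a protein of the decoding centre, had 3.15, 2.81, 2.36 and 2.83 (SD 0.327). Rps3a had 6.48, 6.46, 6.41 and 6.49 (SD 0.0354). The spread of the subunit thus reached from flat genes to genes with a clear order of arrays.

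In the mitochondrial large subunit, Mrpl21 had -1.84, -1.996, -2.55 and -2.77 on replicates 1 to 4 (SD 0.440), Mrpl3 had -1.93, -1.67, -1.91 and -2.42 (SD 0.313) and Mrpl10 had 3.04, 2.85, 2.67 and 2.51 (SD 0.228). All 3 were lowest on replicate 4. The narrowest were Mrpl40 (SD 0.0322), Mrpl17 at 3.99 ± 0.04 and Mrpl16 at -2.34 ± 0.05. With the mean of all probes of a gene the SD was 0.103 for Mrpl40 and 0.0841 for Mrpl17, and without replicate 4 that of Mrpl17 was 0.00606. Of the small subunit symbols, Mrps5 at -2.51 ± 0.23 and Mrps27 at -2.92 ± 0.22 came after Mrps18b as the widest, and Mrps9 at 0.59 ± 0.02, Mrps25 at 2.97 ± 0.04 and Mrps23 at 0.94 ± 0.06 were the narrowest. Dim genes (Mrpl16) and bright genes (Mrpl17) both appear among the narrow ones.

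**Figure D3:**
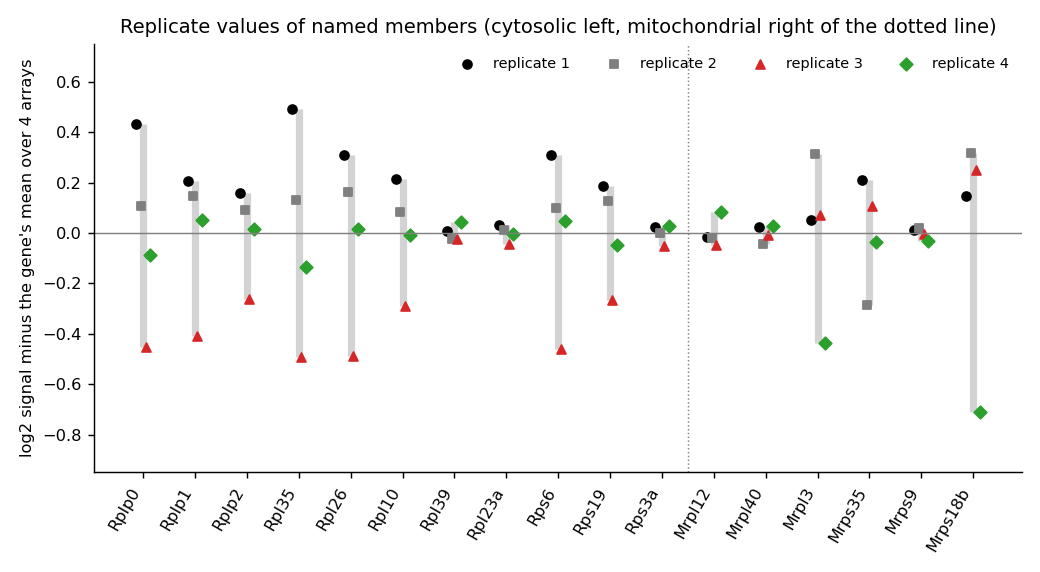
Log2 signal of named members on each array minus the mean of the gene over the 4 arrays (vertical axis), with 1 symbol for each replicate and a grey bar for the span of the gene. Rplp0, Rplp1, Rplp2, Rpl35, Rpl26, Rpl10, Rps6 and Rps19 have replicate 1 on top and replicate 3 at the bottom, Rpl39, Rpl23a and Rps3a hardly move, and Mrps18b is low on replicate 4 alone.

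Most cytosolic genes shared an order of arrays that the mitochondrial genes did not show. The median deviation of a detected cytosolic gene from its own mean was 0.16, 0.07, -0.23 and 0.02 on replicates 1 to 4, against -0.01, -0.02, -0.00 and 0.04 for the mitochondrial genes and -0.02, 0.02, -0.03 and 0.04 for all named genes. Replicate 1 was the highest array of 57 of the 86 cytosolic genes and replicate 3 the lowest of 71, where 16.4% of all detected named genes were highest on replicate 1 and 36.7% lowest on replicate 3. Both held for 50 cytosolic genes (58.1%), 6 mitochondrial genes (8.82%) and 10.3% of all detected named genes. Replicate 1 was above replicate 3 in 79 of 86 cytosolic genes, by a median of 0.37, in 37 of 68 mitochondrial genes, by a median of 0.02, and in 52.3% of all. The large and the small cytosolic subunit had like medians, 0.161 and 0.161 on replicate 1, and -0.230 and -0.223 on replicate 3. These counts describe 4 arrays, with no test. In bulk RNA, fewer cells with a transcript and less of it per cell cannot be told apart.

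The pattern was not seen after quantile normalization. Quantile normalization, which gives every array the same distribution, left cytosolic median deviations of 0.00, -0.00, -0.02 and 0.02, and replicate 1 was above replicate 3 in 49 of 86 genes. Cytosolic members are a large part of the bright genes, with 33 beside 41 other named genes at signals of 6 to 7. A shift that they share can thus be removed by this step itself, and which part of the loss that makes was not tested. Without any scaling the median of all detected named genes itself moved, by -0.14, -0.02, 0.34 and -0.17 on replicates 1 to 4. Leaving out the scaling shifts all genes of an array alike, so relative to that median the cytosolic genes stood at 0.18, 0.06, -0.20 and -0.02 both with and without it.

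**Figure D4:**
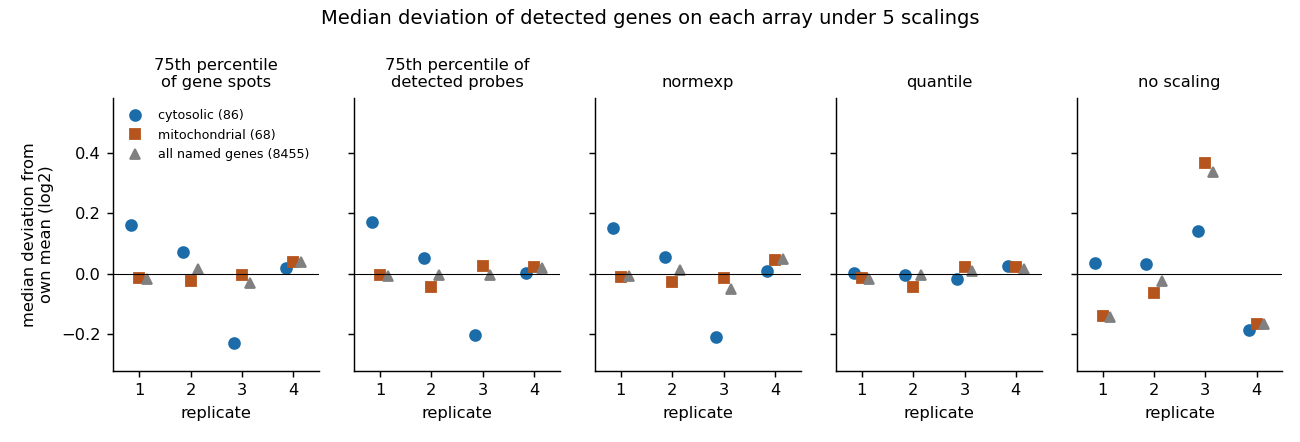
Median deviation of detected genes from their own mean (vertical axis, log2) on each replicate (horizontal axis) under 5 scalings, for 86 cytosolic members, 68 mitochondrial members and 8455 named genes. The cytosolic members are high on replicate 1 and low on replicate 3 in the first 3 panels, all lists lie near 0 after quantile normalization, and without scaling every list is high on replicate 3, the cytosolic members the least.

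Other bright genes shared part of the shift. Replicate 1 minus replicate 3 had a median in cytosolic members of 0.36 for signals of 2 to 4 (7 genes), 0.35 for 5 to 6 (28 genes), 0.45 for 6 to 7 (33 genes) and 0.49 above 7 (6 genes). Named genes outside the ribosome had 0.03 for 2 to 4 (1121 genes), 0.14 for 5 to 6 (101 genes), 0.24 for 6 to 7 (41 genes) and 0.51 above 7 (11 genes). The members thus lay above other genes of like signal except in the brightest class, where each list holds few genes. The classes were chosen after the values were seen.

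The shift also differed with the kind of probe. Some probes of the array are printed at 10 spots and most at 1, and this split was made after the values were seen. For cytosolic members, replicate 1 minus replicate 3 had a median of 0.49 over 124 probes with 1 spot (median signal 5.83), and of 0.14 over 69 probes with 10 spots (median signal 4.52). The median SD between arrays was 0.229 for probes with 1 spot and 0.0983 for probes with 10. At signals of 5 to 6 the difference was 0.54 for 40 cytosolic probes with 1 spot and 0.14 for 20 with 10 spots, while other named genes had 0.14 for 63 probes with 1 spot and 0.13 for 49 with 10 spots. In that class the cytosolic probes with 10 spots were close to other genes and those with 1 spot were above them. At lower signals the cytosolic probes with 10 spots were above other genes too, with 0.15 (18 probes) beside 0.0035 (226 probes of other genes) at 2 to 4, and 0.21 (7 probes) beside -0.04 (180 probes of other genes) below 2.

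**Figure D5:**
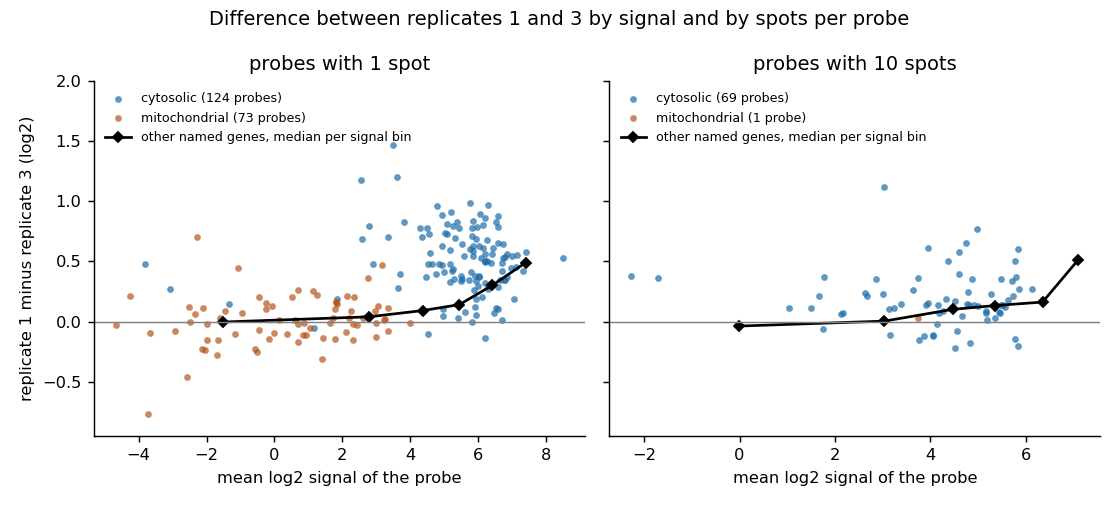
Log2 signal on replicate 1 minus replicate 3 (vertical axis) against the mean log2 signal of the probe (horizontal axis), for detected member probes with 1 spot (left) and with 10 spots (right); black diamonds are medians of other named genes by class of signal. Cytosolic probes with 1 spot lie mostly above the diamonds, with a median of 0.49, and those with 10 spots, with a median of 0.14, lie nearer to them, mostly above them at signals under 4.

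The split was seen within genes too. Of 34 cytosolic genes with both kinds of detected probe, 26 had the larger difference in the probes with 1 spot, with a median of 0.41 for 1 spot and 0.15 for 10 spots. In most of these genes the probes with 1 spot were also the brighter ones (for Rps10 a mean signal of 6.99 beside 3.13). Signal was not matched within genes, so spots per probe and signal cannot be told apart in this count. Rpl14 had 6.31, 6.12, 5.53 and 5.90 on replicates 1 to 4 by a probe with 1 spot, and 5.22, 5.21, 5.15 and 5.12 by a probe with 10 spots. Rps10 had 7.61, 7.50, 7.03 and 7.46 by a probe with 1 spot, and 3.23, 3.20, 3.11 and 3.41 by a probe with 10 spots. In the other direction, both probes of Rpl10 fell on replicate 3: its probe with 10 spots had 5.98, 5.85, 5.48 and 5.76, and its probe with 1 spot had 4.64, 4.41, 3.94 and 4.42. Rpl14 and Rps10 were chosen after their values were seen. The brightest probe, which stands for the gene, has 1 spot in 66 of the 86 detected cytosolic genes, 10 spots in 19 and 2 spots in 1, and the part of the probe kind in the shared pattern was not tested further.

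Repeat spots of 1 probe give the spread within an array. Over 71 detected cytosolic probes with 2 to 10 spots the median SD between the spots of an array was 0.0903, and the median SD of the probe means between arrays was 0.100. For 8 such mitochondrial probes the values were 0.101 within and 0.0913 between arrays. The first kind of SD is of single spots and the second of means over spots, so the values are not set against each other, and probes with 1 spot have no such value.

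Genes with and without the pyrimidine start were set side by side. Among detected cytosolic genes with a promoter window, the 23 with an annotated pyrimidine start had a median signal of 5.92, a median SD of 0.145 and a median of 0.32 for replicate 1 minus replicate 3, and the 46 without had 5.93, 0.195 and 0.42. Both widely moving genes (Rpl35, Rplp0) and flat ones (Rpl39, Rps3a) carried it. This is a description, with no test, and the annotated base misses known starts, as given above.

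Ribosomal proteins whose symbols fall outside the rule were all detected, 8 of 8, with a median SD of 0.125. Fau, which fuses a ubiquitin-like protein to a small subunit protein, had 5.94, 5.79, 5.67 and 5.95 on replicates 1 to 4, and Rack1, a signalling scaffold of the small subunit, had 4.32, 4.53, 4.41 and 4.23. Fau was lowest on replicate 3 and Rack1 on replicate 4. The mitochondrial ones were Dap3, a GTP-binding small subunit protein (-0.33 ± 0.11), the RNA-binding Ptcd3 (1.07 ± 0.12), Gadd45gip1 of the large subunit (1.94 ± 0.12), Chchd1 (1.85 ± 0.20) and Aurkaip1 (3.00 ± 0.03).

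Most genes that build or drive the ribosomes were detected, and 0 of them passed limma's variance test. Over all named genes 51% were detected, and of the 8455 tested 20 (0.237%) passed and 532 had an unadjusted p under 0.05. Of 51 ribosome assembly and rRNA synthesis genes with a named probe, 50 were detected and 1, Taf1b, on 1 array (median signal 0.42, 4 genes at an unadjusted p under 0.05). Of 23 mitochondrial ribosome assembly genes, 22 were detected (median signal -1.51, 0 at an unadjusted p under 0.05). Of 15 mitochondrial translation factors, 13 were detected (median signal -2.61, 2 at an unadjusted p under 0.05), among them the elongation factor Tufm at 3.67 ± 0.15 and the protein insertase Oxa1l at 3.30 ± 0.22, and Slirp, the partner of Lrpprc, was not (-7.53).

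All 15 other transcripts with a known terminal oligopyrimidine start were detected (median signal 5.10), and 11 of them were lowest on replicate 3, where 36.7% of all detected named genes were, and 5 highest on replicate 1, where 16.4% of all were. The elongation factor Eef1a1 had 6.62, 6.69, 6.32 and 6.49 on replicates 1 to 4, the poly(A)-binding protein Pabpc1 had 5.81, 5.77, 5.49 and 5.76, and Tpt1, the translationally controlled tumour protein, had 6.42, 6.41, 6.35 and 6.45. The median deviation of the 15 was 0.00, 0.03, -0.09 and 0.03, smaller than that of the cytosolic members. Other named genes had -0.08 on replicate 3 at signals of 4 to 5 (214 genes) and -0.11 at 5 to 6 (101 genes). On replicate 3 the 15 were thus close to other genes of like signal. Of the genes that control ribosomal protein synthesis 16 of 16 were detected, with the kinase gene Mtor at -4.03 ± 0.39, the translation repressor Eif4ebp1 at 4.20 ± 0.10, the S6 kinase Rps6kb1 at -0.61 ± 0.17 and the transcription factor Myc at 1.87 ± 0.17. Larp1 had no named probe. The genes given as examples of these lists were chosen after their values were seen. Neither list had a gene past the variance test, or one at an unadjusted p under 0.05.

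On the arrays as a whole, 49.2% to 50.3% of gene spots were well above background, none was saturated, and r over 17324 detected probes lay between 0.990 and 0.994 for the 6 pairs of arrays. The median raw signal was identical in 1.64% to 2.07% of spots in any pair, so all arrays were kept. Of the macrophage markers 10 of 10 and of the alveolar macrophage markers 3 of 5 were detected, with Marco and Car4 not. Among 18 genes that mark epithelium, fibroblasts, endothelium, lymphocytes or neutrophils, 2 were detected, 1 partly and 15 not, and their part in the values of the members was not tested.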

How the data were processed

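RNA of 4 samples of 1 group was measured on 4 one-colour Agilent rat arrays. RNA with an integrity number above 7.5 was used, 100 ng for each array, and labelled with the dye Cy3, per the labels' protocols. Per the file headers, the deposited values are linear intensities of each spot from Agilent Feature Extraction 11.0.1.1, with its background handling and no step between arrays, beside flags of 0 or 1. The submitters' processing notes name no other tool.

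From these deposited intensities the log2 of the processed signal was taken, spots of 1 probe were averaged without outlier-flagged spots (1.11% to 1.45%), and the log2 of the 75th percentile of all gene spots of the array was subtracted (intensities of 878, 932, 1237 and 831 on replicates 1 to 4). A probe was above background when more than 50% of its spots were. Arrays give no read depth, and their number limits the precision. Accessions were matched without versions to RefSeq names of GRCr8, which named 21109 of 45598 probes. The header of the arrays names another build, so coordinates are given for RefSeq start windows alone. A gene takes the value of its brightest probe.

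Variance was tested with limma 3.58.1 in R 4.3.3 (intercept only, eBayes with trend and robust fitting, upper-tail F test, Benjamini-Hochberg, threshold 0.05) on every detected named gene with a value on each array. The test was run on simulated data first. The other steps used matplotlib 3.10.9, pandas 2.3.3, numpy 2.4.6, scipy 1.17.1 and Python 3.11.15.

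Genes are named by this rule: members not or partly detected, past the variance test or spanning more than 2-fold, the 3 with the widest and the 3 with the narrowest spread of each subunit, the paralogue pairs, 27 fixed landmarks, and 8 ribosomal proteins outside the symbol rule. Some genes that meet it are not reported here. The members, lists and classes were chosen with earlier results of these data known. The 75th percentile over all spots was taken as scaling after the files were seen, with that over probes as an added alternative. Alternatives in scaling, background handling, probe choice, detection, filtering and arrays are given in the closing section.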

Additional observations from a re-analysis of the deposited data

Results flagged for a closer look

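A sample far from the other 3 was looked for in each of 160 values, the 154 detected members and the medians of the 2 ribosomes and 4 subunits, by the gap to the nearest array over the whole range. It was found in 15 (9.38%), where chance gives about 1 in 20 for values that do not depend on each other. Members that share a shift between arrays do depend on each other. The share over all detected named genes was not computed, so no excess in the members can be read from this count. The limit was Dixon's critical value, and 14 of the 15 are given here.

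Mrps18b had -1.87 on replicate 4 (others -1.01 to -0.84), the widest gap of the 15 (0.86, log2). Cytosolic genes were set apart on replicate 3, where Rpl3 was at 5.87 (others 6.28 to 6.36), Rpl6 at 5.65 (others 5.92 to 5.93) and Rps3 at 5.94 (others 6.17 to 6.21). Rpl37al3, a copy, was low on replicate 2, at 5.71 against 5.85 to 5.87.

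Of the mitochondrial genes, Mrpl55 was high on replicate 4 at 1.95 (others 1.63 to 1.66), Mrpl41 at 2.73 (others 2.56 to 2.58) and Mrpl1 at 0.27 (others 0.10 to 0.11). On the same array Mrps30 was low at 0.72 (others 0.90 to 0.91) and Mrpl17 at 3.93 (others 4.00 to 4.01). On replicate 3, Mrps34 was low at 1.101 (others 1.32) and Mrpl23 at 2.19 (others 2.36 to 2.39). Mrpl52 was high on replicate 2 at 0.83 (others 0.62 to 0.64), and Mrpl19 was low on replicate 1 at -0.28 (others -0.15 to -0.14). In 8 of the 15 the gap was under 0.2. Rpl6, Rpl37al3, Mrpl55, Mrpl1, Mrpl23, Mrpl52 and Mrpl19 were picked out by these values.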

How the results depend on the processing

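No paired analysis was possible because the series holds 1 group. With no test between groups, a value counts as moved past the SD of the array medians (signals), the SD of the values without each array (spread and range) or 1.5 times (counts). The median signal over the cytosolic and the mitochondrial genes was 15.8 and 11.3 without scaling, 4.91 and 0.47 with the percentile over detected probes, 8.28 and 3.83 with the percentile over probes (added after seeing the data), and 5.02 and 0.96 with the mean of all probes of a gene. The cytosolic one was 6.04 with standard symbols only (added after seeing the data). The difference between the medians was 4.06 with the mean of all probes, and 4.37 to 4.55 without each replicate in turn. The cytosolic median SD was 0.105 with quantile normalization, 0.117 with probes of 10 spots only (48 genes, added after seeing the data) and 0.0918 to 0.216 without each replicate, lowest without replicate 3. The median SD over all detected named genes was 0.139 with quantile normalization. The range of the cytosolic median deviations was 0.39 as reported, 0.0423 with quantile normalization, 0.165 with probes of 10 spots only and 0.14 to 0.40 without each replicate, lowest without replicate 3. The mitochondrial median SD was 0.265 without scaling and 0.0850 to 0.117 without each replicate, and the range of deviations was 0.06 as reported, 0.53 without scaling and 0.0242 to 0.0675 without each replicate, lowest without replicate 4. Genes over 2-fold numbered 2 cytosolic with the mean of all probes, 4 without the filter on dim probes and 2 with normexp, against 1, and 3 mitochondrial without scaling and 0 with normexp, against 1. Without each replicate they numbered 0 to 1 on both sides, with 0 cytosolic without replicate 1 and 0 mitochondrial without replicate 2 or 4. The shares of all named genes over 2-fold under these alternatives are not given here. The variance test called 2 cytosolic genes without the filter (Rpl27al1 and Rpl35, Rpl35 at an adjusted p of 0.0486), 1 with normexp and 0 to 1 without each replicate (1 without replicate 2), and 0 mitochondrial genes under every alternative run. Over all genes tested it called 79 of 16555 without the filter, 57 of 8455 with normexp and 63 of 8530 without replicate 2, against 20 of 8455 as reported. Detection stayed at 86 and 68 genes without each replicate. The cause of these changes was not tested. Of 62 named members, the SD moved by more than 1.5 times in 42 without scaling, 26 with quantile normalization, 24 without replicate 3 and 17 with normexp.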

Other observations

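Some cytosolic genes went against the split by spots per probe, and they were picked out by these values. In 8 of the 34 genes with both kinds of probe, replicate 1 minus replicate 3 was larger in the probes with 10 spots. By the brightest probe, replicate 1 was not above replicate 3 in 7 of the 86 detected cytosolic genes, among them Rps27, Rpl22l1 and Rpl39l1. The other probes of Rps27 and Rpl22l1 had replicate 1 above replicate 3, by 0.03 to 0.48 for Rps27 and by 0.27 for Rpl22l1.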
